A study of Mus musculus with 13 samples.

Results

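The 10 genes described here encode ephrins and Eph receptors: the ephrins Efnb1, Efnb2 and Efna1 and the receptors Ephb2, Ephb3, Ephb4, Ephb6, Epha2, Epha3 and Epha4. They were picked by name from the 22 ephrin and Eph genes among the 54532 genes of the count table. Their choice followed measured values of the same aortas, because Efnb1 was lower in the Ad-FAM3A group than in the Ad-sham group, so the group differences of these genes are given as descriptions, and nothing is read from their place in counts over all genes. RNA was sequenced from the aortas of 13 ApoE knockout mice, 1 library per aorta. All mice received AngII (angiotensin II) from a subcutaneous slow-release pump, which produces abdominal aortic aneurysm in this strain, and the methods give the mice of this model as 10 weeks old and male or female. By their sex-linked genes, given with the processing below, all 13 sequenced mice were male. The Ad-sham group (n = 6) was injected weekly through the caudal vein with an empty adenovirus, and the Ad-FAM3A group (n = 7) with an adenovirus that overexpresses FAM3A. Per the vector name in the methods, a tagged mouse FAM3A was driven by the EF1A promoter, which is active in most cell types. The methods also name a Gateway vector with CMV in its name for the construction, so the promoter is not certain. Neither group lacked AngII, virus or the Apoe deletion, so no value here describes an untreated aorta. The comparison asks how FAM3A overexpression changed gene expression of the aorta.

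Eph receptors are receptor tyrosine kinases, and ephrins are their membrane-bound ligands, so signaling needs contact between neighboring cells. A-type ephrins are held by a lipid anchor, whereas B-type ephrins cross the membrane and signal back into the cell that carries them. In blood vessels ephrin-B2 marks arteries and EphB4 marks veins, and ephrin-B2 is also present in arterial smooth muscle.

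The sequences around the start sites of Efnb1, Efnb2 and Epha3 are shown because Efnb1 gave the group its place here, and Efnb2 and Epha3 rose and fell together between aortas, as described further on. Each holds 250 bases before and 50 bases after the RefSeq start on GRCm38.p6, written 5′ to 3′ on the strand of the gene, with GC boxes (GGGCGG on either strand, the letters bound by SP factors) in capitals. Efnb1 comes from chrX:99135811-99136110 (plus strand), Efnb2 from chr8:8661193-8661492 (minus strand) and Epha3 from chr16:63864126-63864425 (minus strand).
Efnb1: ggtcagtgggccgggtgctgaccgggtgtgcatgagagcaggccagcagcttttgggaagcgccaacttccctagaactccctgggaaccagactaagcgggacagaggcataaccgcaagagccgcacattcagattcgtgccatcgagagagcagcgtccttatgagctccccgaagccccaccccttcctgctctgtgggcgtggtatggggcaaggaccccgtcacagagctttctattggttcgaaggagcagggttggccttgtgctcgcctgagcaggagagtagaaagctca
Efnb2: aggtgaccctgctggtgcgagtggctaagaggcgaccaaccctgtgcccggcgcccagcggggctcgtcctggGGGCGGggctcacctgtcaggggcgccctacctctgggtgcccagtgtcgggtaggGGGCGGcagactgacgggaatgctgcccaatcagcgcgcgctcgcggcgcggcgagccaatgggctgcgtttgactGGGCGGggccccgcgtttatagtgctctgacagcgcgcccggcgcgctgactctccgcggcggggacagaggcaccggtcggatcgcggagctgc
Epha3: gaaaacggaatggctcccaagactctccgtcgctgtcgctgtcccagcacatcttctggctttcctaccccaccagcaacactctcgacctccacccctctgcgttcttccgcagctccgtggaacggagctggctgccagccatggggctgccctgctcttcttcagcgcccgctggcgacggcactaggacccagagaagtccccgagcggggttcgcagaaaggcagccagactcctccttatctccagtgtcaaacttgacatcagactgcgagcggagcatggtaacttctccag

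The Efnb2 window held 3 GC boxes and 35 CG pairs, whereas the windows of Efnb1 and Epha3 held no GC box and 14 and 18 CG pairs. RefSeq gave 11 such windows for the 10 genes, and 7 of the 10 genes had a GC box in at least 1 window, compared with 35.7% of all 32851 windows of this length. Ephb6 had the most GC boxes, with 5, followed by Ephb4 with 4, and Ephb2 was the other gene with none. CG pairs ranged from 10 (Epha2) to 35 per window, and the median of all windows was 7. The TATA box letters TATAAA on either strand were found in 1 of the 10 genes, Efnb2, and in 13.6% of all windows. The CArG box, the site of the smooth muscle regulator serum response factor, was found in 0 of the 10 genes and in 1.63% of all windows. These are matches of letters and not measured binding. The values for the 10 genes count genes, whereas those for all windows count single windows. The windows were not matched for CG pairs or expression, so the shares are not like for like.

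Total counts ranged from 14481179 to 19797407 per aorta, so that 3 counts, the upper bound behind an observed 0, came to 0.140 to 0.221 CPM, the unit used for each gene's level (counts divided by library size with TMM factors), and all 10 genes stood far above it. Fam3a itself was at 24.4 ± 4.27 CPM in Ad-sham and 24.0 ± 4.64 CPM in Ad-FAM3A (SD, n = 6 and 7, log2 fold change −0.03, SE 0.16, exact permutation p = 0.835, two-sided), so the targeted gene did not separate the groups and directions below refer to the labels. The contractile smooth muscle gene Acta2 (4312 and 5755 CPM, Ad-sham and Ad-FAM3A), Myh11 (1989 and 2268 CPM) and the endothelial gene Pecam1 (514 and 595 CPM) were all present. The library Ad-FAM3A6 stood apart, with the lowest mean log2 CPM of smooth muscle markers (6.68) and the highest of B cell (6.92) and T cell markers (5.69), and values that moved markedly without it are given both ways. The libraries carried no label for batch or date. Across 15811 tested genes, edgeR's quasi-likelihood test called 0 genes (0%), a call needing both an adjusted p under 0.05 and at least a change of 1 on the log2 scale in either direction, and the lowest adjusted p was 0.810. At an unadjusted p under 0.05 it gave 934 genes (5.91%), of which 463 were lower (2.93%) and 471 higher (2.98%) in Ad-FAM3A. DESeq2 called 10 genes and limma-voom 0, and neither called any of the 10 ephrin and Eph genes.

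Efnb1, which encodes the transmembrane ligand ephrin-B1, was the member that set the choice. Its lowest, median and highest levels were 28.8, 36.8 and 60.8 CPM in Ad-sham and 20.2, 23.2 and 32.8 CPM in Ad-FAM3A. All 7 Ad-FAM3A aortas lay below the Ad-sham median and 5 of 6 Ad-sham aortas lay above every Ad-FAM3A aorta, and the groups overlapped through Ad-sham1 and Ad-FAM3A1. The means were 41.9 ± 12.9 and 25.0 ± 4.10 CPM (SD), a fold of 0.597 and a log2 fold change of −0.74 (SE 0.19). The spread was wider in Ad-sham, where Ad-sham3 (60.8 CPM) and Ad-sham5 (54.7 CPM) were the high aortas. Without Ad-sham3 the log2 fold change was −0.61, without Ad-sham1 it was −0.84, and without Ad-FAM3A6 it was −0.73. The authors' mean FPKM, deposited once per group, was 12.0 in Ad-sham and 7.22 in Ad-FAM3A for Efnb1.

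Efnb2 encodes ephrin-B2, the arterial ligand of EphB4. Its lowest, median and highest levels were 46.1, 65.7 and 82.1 CPM in Ad-sham and 30.9, 72.5 and 96.8 CPM in Ad-FAM3A, with means of 65.3 ± 15.0 and 70.4 ± 22.2 CPM. The groups overlapped over most of their range, and both the lowest aorta (Ad-FAM3A6) and the highest (Ad-FAM3A4) were in Ad-FAM3A. The log2 fold change was 0.11 (SE 0.23), and leaving out 1 aorta moved it between 0.03 (without Ad-FAM3A4 or Ad-sham1) and 0.24 (without Ad-FAM3A6), with 0.05 without Ad-sham3 and 0.06 without Ad-FAM3A5. Efna1 encodes ephrin-A1, a lipid-anchored ligand that binds EphA2 and is induced by inflammatory cytokines in endothelium. It was at 9.92, 13.8 and 25.0 CPM (lowest, median, highest) in Ad-sham and 8.50, 12.3 and 18.6 CPM in Ad-FAM3A, a log2 fold change of −0.17 (SE 0.24). The high aorta was Ad-sham5, and without it the log2 fold change of Efna1 was 0.02, whereas without Ad-FAM3A6, the low aorta, it was −0.08. In the other direction it was −0.27 without Ad-sham1.

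**Figure D1:**
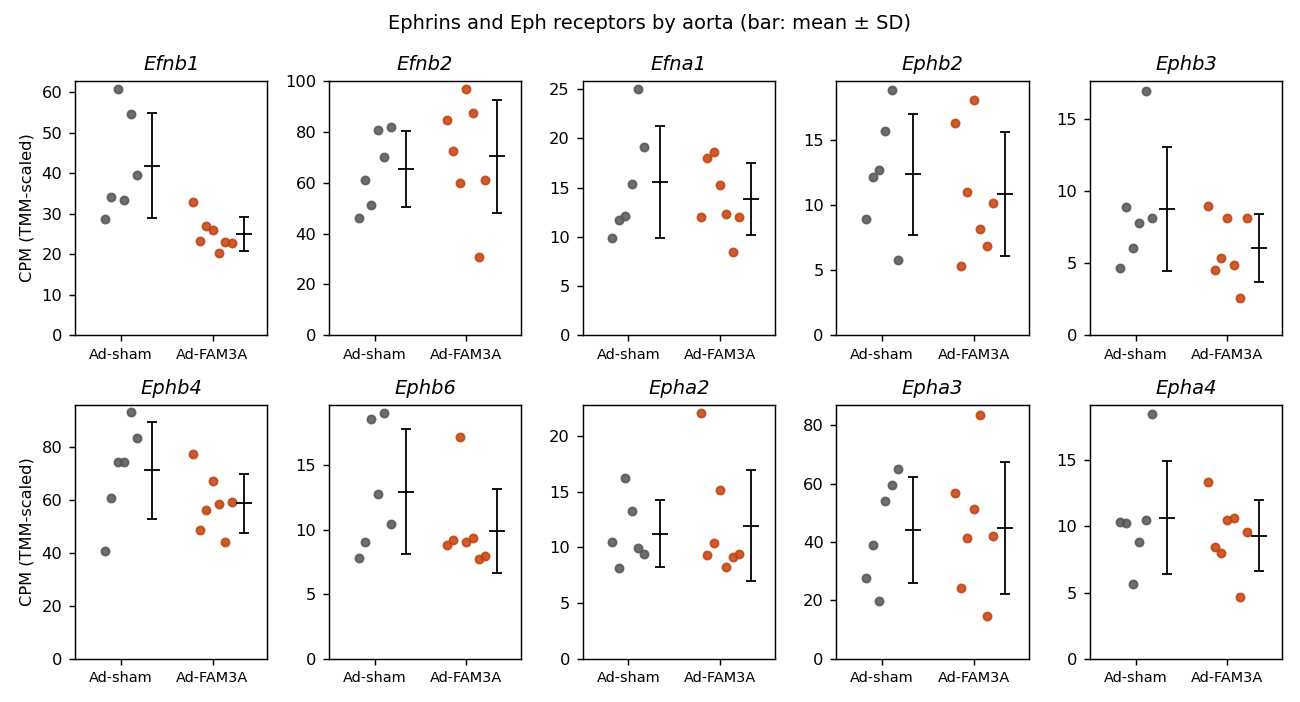
CPM (TMM-scaled, linear axis from 0) of the 10 genes in each aorta, grey for Ad-sham (n = 6) and orange for Ad-FAM3A (n = 7), with the mean and SD beside the points. Efnb1 is the panel in which 5 of 6 Ad-sham aortas lie above all Ad-FAM3A aortas, and the groups overlap in every panel.

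Among the B-type receptors, Ephb4, the venous receptor of ephrin-B2, had the highest counts. It was at 40.7, 74.1 and 93.2 CPM (lowest, median, highest) in Ad-sham and 44.1, 58.5 and 77.1 CPM in Ad-FAM3A, a log2 fold change of −0.28 (SE 0.18). Leaving out 1 aorta moved this value between −0.40 (without Ad-sham1) and −0.18 (without Ad-sham5). The ranges overlapped, and 6 of 7 Ad-FAM3A aortas lay below the Ad-sham median. Exons of Ephb4 overlap Zan on the opposite strand in the GENCODE M21 annotation, and the strand setting of the counting was not given in the sources used here, so reads of the overlap cannot be assigned. Ephb6, a receptor whose kinase domain is inactive, was at 7.80, 11.6 and 19.1 CPM in Ad-sham and 7.70, 9.04 and 17.2 CPM in Ad-FAM3A. The log2 fold change of Ephb6 was −0.39 (SE 0.26), with 6 of 7 Ad-FAM3A aortas at or below 9.35 CPM and Ad-FAM3A3 alone high. It was −0.56 without Ad-FAM3A3 and −0.25 without Ad-sham5.

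Ephb3 and Ephb2 encode kinase-active receptors of B-type ephrins. Ephb3 was at 4.63, 7.93 and 16.9 CPM in Ad-sham and 2.57, 5.36 and 8.93 CPM in Ad-FAM3A, a log2 fold change of −0.53 (SE 0.33). Ad-sham5 was far above the other Ad-sham aortas, and without it the log2 fold change of Ephb3 was −0.23. Ephb2 was at 5.78, 12.5 and 18.9 CPM in Ad-sham and 5.29, 10.2 and 18.1 CPM in Ad-FAM3A, with a log2 fold change of −0.19 (SE 0.32). The ranges of Ephb2 nearly coincided, and its log2 fold change was −0.03 without Ad-sham5, −0.05 without Ad-FAM3A2, −0.11 without Ad-FAM3A6 and −0.35 without Ad-FAM3A4.

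Among the A-type receptors, Epha3 had the highest counts and a wide spread in both groups. It was at 19.8, 46.7 and 65.0 CPM in Ad-sham and 14.6, 42.3 and 83.7 CPM in Ad-FAM3A, a log2 fold change of 0.02 (SE 0.36). The lowest aorta was again Ad-FAM3A6, and its removal gave a log2 fold change of 0.18, whereas removal of Ad-FAM3A5, the highest, gave −0.19 and that of Ad-sham3 gave −0.13. The sign was kept in 11 of 19 alternative analyses. Epha2, the main receptor of ephrin-A1 in endothelial and epithelial cells, was at 8.12, 10.2 and 16.3 CPM in Ad-sham and 8.24, 9.39 and 22.1 CPM in Ad-FAM3A. Its log2 fold change was 0.09 (SE 0.26). Leaving out 1 aorta moved that of Epha2 between −0.12 (without Ad-FAM3A1, the high aorta) and 0.22 (without Ad-sham3). It was 0.01 without Ad-sham2, 0.03 without Ad-FAM3A4 and 0.14 without Ad-FAM3A6. Epha4, which binds both A-type and B-type ephrins, was at 5.62, 10.3 and 18.5 CPM in Ad-sham and 4.71, 9.56 and 13.4 CPM in Ad-FAM3A. Its log2 fold change was −0.20 (SE 0.27), and it was 0.03 without Ad-sham6, the high aorta, and −0.08 without Ad-FAM3A6, the low aorta. In the other direction it was −0.33 without Ad-sham3 and −0.30 without Ad-FAM3A1.

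Of the 10 genes, 7 had a negative and 3 a positive log2 fold change, with a median of −0.19, whereas the median of all 15811 tested genes was 0.003 and 49.6% of them were negative. Efnb1 was the 1 gene of 10 at an unadjusted p under 0.05, which stands beside 5.91% of all genes and cannot be read as a result because this contrast chose the gene. Ephb4 reached that level too without Ad-sham1 (log2 fold change −0.40), where 999 of 16051 genes did, and Ephb6 without Ad-FAM3A3, where 984 of 15629 genes did, and nothing is read from these either. In every gene except Efnb1, Ephb3, Ephb4 and Ephb6 the log2 fold change was smaller in size than its SE. Signs held in all 19 alternative analyses for Efnb1, Efnb2, Ephb2, Ephb3, Ephb4 and Ephb6, and changed in at least 1 for Efna1, Epha2, Epha3 and Epha4.

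**Figure D2:**
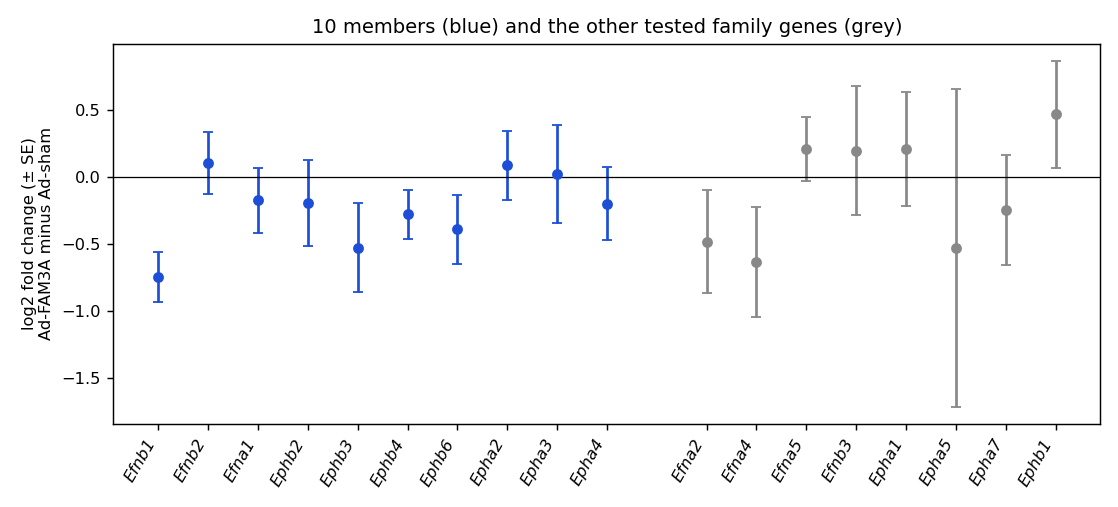
Log2 fold change (Ad-FAM3A minus Ad-sham, points) with its SE (bars) from edgeR for the 10 genes (blue) and the 8 other ephrin and Eph genes that were tested (grey). Efnb1 lies at −0.74, and the other blue points lie between −0.53 and 0.11.

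Levels of different genes were compared per length, as RPKM (CPM divided by gene length in kilobases), within each of the 13 aortas. The order by median was Ephb4 (13.1 RPKM), Efnb2 (10.2), Efnb1 (8.33), Efna1 (6.71), Epha3 (4.86), Ephb6 (2.44), Epha2 (2.12), Epha4 (1.27), Ephb3 (1.17) and Ephb2 (0.873). Of the 9 neighboring pairs, 4 differed in an exact sign-flip permutation test over aortas (two-sided, adjusted over the 9 pairs). Ephb4 was above Efnb2 by 0.50 ± 0.38 on the log2 scale (SD, n = 13, exact permutation adjusted p = 0.00439), in 11 of 13 aortas. Efna1 was above Epha3 by 0.73 ± 0.65 (adjusted p = 0.00952) in 12 of 13, and Epha3 above Ephb6 by 0.70 ± 0.84 (adjusted p = 0.0308) in 11 of 13. The widest step was from Epha2 to Epha4, 1.02 ± 0.65 (adjusted p = 0.00439), in 12 of 13 aortas. Thus the 3 ligands and the receptor Ephb4 headed the order. The neighbors Efnb2 and Efnb1 differed by 0.09 ± 0.66 (adjusted p = 0.645), less than their spread. This order pools the groups, and Efnb1 averaged 12.1 and Efnb2 9.52 RPKM in Ad-sham (Efnb1 higher in 4 of 6 aortas), and 7.24 and 10.3 RPKM in Ad-FAM3A (Efnb2 higher in 6 of 7). These group values follow from the lower Efnb1 that chose the genes, and the difference in order between groups was not tested. The remaining 4 pairs differed by 0.23 to 0.25 (adjusted p = 0.177 each).

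**Figure D3:**
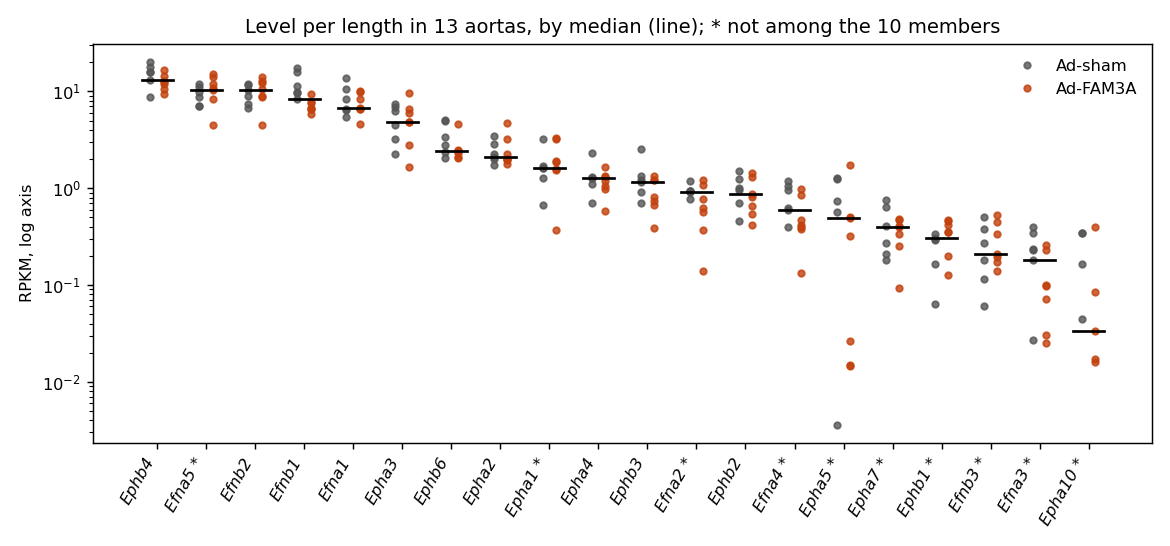
RPKM (log axis) in each of the 13 aortas for the ephrin and Eph genes with a median above 0, grey for Ad-sham and orange for Ad-FAM3A, with the median as a line and an asterisk at genes outside the 10, where values of 0 are not drawn. Ephb4 (median 13.1 RPKM) is highest, and 5 of the first 6 places by median are held by the 10 genes.

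Together the 10 genes made up 79.0% of the summed RPKM of the 22 family genes (median of 13 aortas, range 72.8% to 82.6%). The share was 80.2% in Ad-sham and 77.6% in Ad-FAM3A (medians). The 3 ligands among them held 39.4% and the 7 receptors 39.6% of the family sum. Outside the 10, Efna5, the lipid-anchored ligand ephrin-A5, was the highest gene at a median of 10.3 RPKM, and it was singled out after its values were seen. Epha6 and Epha8 had a median of 0.

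The remaining genes of the pathway were counted in 5 lists with 58 genes, of which 53 were tested, and 0 of them were called. At an unadjusted p under 0.05, 2 of 53 genes were lower (3.77%, beside 2.93% of all genes) and 0 were higher (beside 2.98%), and 26 of 53 had a negative log2 fold change with a median over the lists of 0.005. DESeq2 called 0 of them as well, and Inppl1 and Cdk5 were the genes at an unadjusted p under 0.05 in both tools. Neither kept it in edgeR without Ad-FAM3A6, where 1 gene, the kinase gene Rock2, was at that level and higher, nor without Ad-FAM3A3, where 1 gene, the Rac regulator Chn1, was at that level and lower, nor without Ad-sham3 or Ad-FAM3A5, where 0 genes were. Inppl1 but not Cdk5 kept it with a replicate block and without Ad-sham2, Ad-sham4, Ad-sham5, Ad-FAM3A4 or Ad-FAM3A7. More genes reached that level in 3 settings, 1 of them higher each time. These were 4 of 53 without Ad-sham1 (beside 999 of 16051 genes), 3 of 54 without Ad-sham4 (1221 of 16022) and 3 of 53 without Ad-FAM3A2 (1345 of 15642). Inppl1 and Cdk5 were in the list of signaling on the receptor side, where 22 of 22 genes were tested. Inppl1 encodes SHIP2, a lipid phosphatase that binds EphA2, and was at 82.6 ± 21.6 CPM in Ad-sham and 62.4 ± 8.90 CPM in Ad-FAM3A, a log2 fold change of −0.41 (SE 0.16). Cdk5, the kinase that acts on EphA4 signaling in neurons, was at 33.2 ± 3.43 and 25.3 ± 6.90 CPM, a log2 fold change of −0.40 (SE 0.17). The lowest edgeR adjusted p in these lists was 0.810. In the other lists 0 genes reached an unadjusted p under 0.05, among 4 other ephrins, 4 other Eph receptors, 13 genes of signaling on the ligand side and 10 of shedding and turnover.

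The 10 genes also varied between aortas within the groups. Their coefficient of variation ran from 22.9% (Efnb2) to 49.3% (Ephb3) in Ad-sham and from 16.4% (Efnb1) to 50.2% (Epha3) in Ad-FAM3A. Over all 13 aortas, with the group difference included, the genes ranged from 24.2% (Ephb4) to 48.3% (Ephb3). To see which moved together, the group means were subtracted from log2 CPM and the 45 pairs were correlated by a permutation test within groups (n = 13). After adjustment over the 45 pairs, 3 pairs passed. Efnb2 and Epha3 gave Pearson r = 0.84 and Spearman rho = 0.82 (permutation p = 0.00116 and 0.00166, adjusted p = 0.0265 for r), with r = 0.71 without the 2 aortas farthest from the median. Epha3 and Epha4 gave r = 0.80 and rho = 0.78 (permutation p = 0.00118 and 0.00267, adjusted p = 0.0265), and r = 0.51 without the 2 farthest aortas, so this relation leaned on them. Ephb3 and Ephb4 gave r = 0.80 and rho = 0.76 (permutation p = 0.00246 and 0.00438, adjusted p = 0.0369), with r = 0.71 without the 2 farthest. Thus a ligand and an A-type receptor, a pair of A-type receptors and a pair of B-type receptors covaried. Without Ad-FAM3A6 the 3 correlations were 0.74, 0.69 and 0.77 and 0 pairs passed, and with Spearman correlation 0 pairs passed. None of the 9 pairs with Efnb1 passed, the nearest being 3 pairs with an adjusted p of 0.0860 each. These were Epha2 (r = 0.59, rho = 0.51, permutation p = 0.0200 and 0.0695), Ephb6 (r = 0.70, rho = 0.55, permutation p = 0.0208 and 0.0932) and Ephb4 (r = 0.68, rho = 0.64, permutation p = 0.0229 and 0.0313). Without the 2 farthest aortas r was 0.68 with Epha2, 0.32 with Ephb6 and 0.71 with Ephb4.

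In bulk tissue fewer cells of a type and less RNA per cell cannot be told apart, so each gene was also set beside marker genes of 16 cell types or tissues, scored as mean log2 CPM. Of the 160 pairs of a gene and a marker list, 3 passed (permutation test within groups, n = 13, adjusted over 160). Efnb2 rose and fell with arterial endothelial markers (r = 0.89, rho = 0.81, permutation p = 7.0e-05 and 0.00157, adjusted p = 0.0112 for r) and with smooth muscle markers (r = 0.90, rho = 0.81, permutation p = 0.00054 and 0.00294, adjusted p = 0.0288). Without the 2 farthest aortas these were r = 0.84 and r = 0.72. Epha3 moved with fibroblast markers (r = 0.90, rho = 0.86, permutation p = 0.00014 and 0.00091, adjusted p = 0.0112), with r = 0.80 without the 2 farthest. Ad-FAM3A6 was lowest in all 3 marker lists (3.62, 6.68 and 8.10) and in both genes. Without it the correlations were 0.89, 0.80 and 0.85 and 0 pairs passed the adjustment over 160, and 0 passed with Spearman correlation. The part of cell makeup in these relations was not tested.

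**Figure D4:**
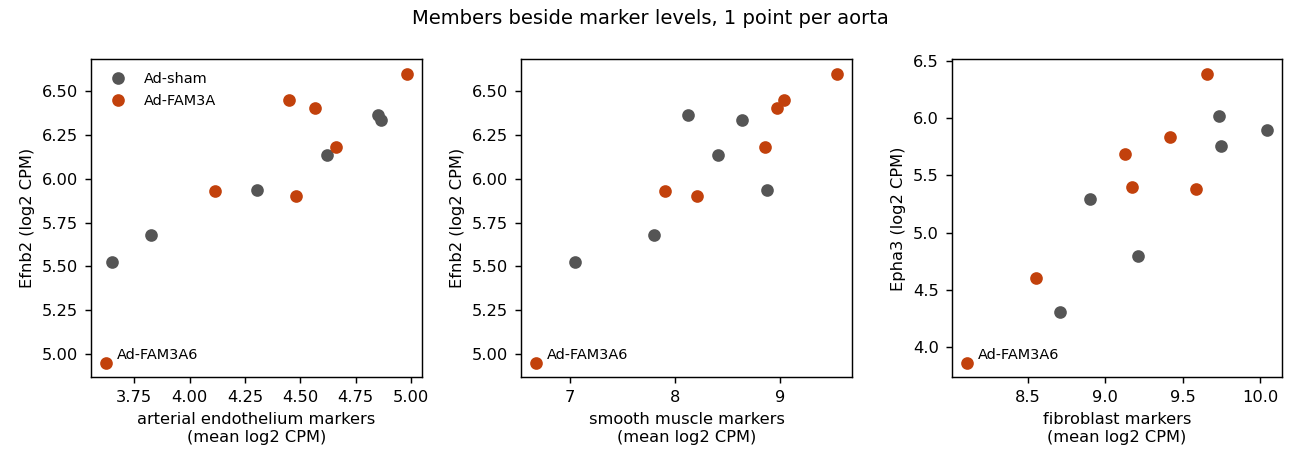
Log2 CPM of Efnb2 or Epha3 (vertical) against the mean log2 CPM of arterial endothelial, smooth muscle or fibroblast markers (horizontal), 1 point per aorta, grey for Ad-sham and orange for Ad-FAM3A. Ad-FAM3A6 is the lowest point of each panel.

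Efnb1 followed none of the 16 marker lists past the threshold. By Pearson correlation it was nearest to Schwann cell markers (r = 0.65, rho = 0.62, permutation p = 0.0133 and 0.0285, adjusted p = 0.169), with r = 0.56 without the 2 farthest aortas. For sympathetic neuron markers it was r = 0.54 (rho = 0.62, permutation p = 0.114 and 0.0524, adjusted p = 0.424), with r = 0.25 without the 2 farthest aortas. For kidney epithelium markers it was r = 0.51 (rho = 0.63, the highest rho of the 16 lists, permutation p = 0.102 and 0.0450, adjusted p = 0.407), with r = 0.35 without the 2 farthest. Only 4 of the 7 kidney genes were tested. Their score was low, with a mean of 1.24 in Ad-sham and −0.13 in Ad-FAM3A and a lowest value of −2.19 (Ad-sham2). The Ad-sham aortas highest in Efnb1 were also high in sympathetic neuron markers, Ad-sham3 at 7.04 and Ad-sham5 at 7.30, but so were Ad-sham6 at 6.19 and Ad-sham1, the Ad-sham aorta lowest in Efnb1, at 6.02. Ad-FAM3A3 had the highest level of these markers, 7.54, with an Efnb1 level of 27.0 CPM, and the part of nerve tissue in the level of Efnb1 was not tested.

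**Figure D5:**
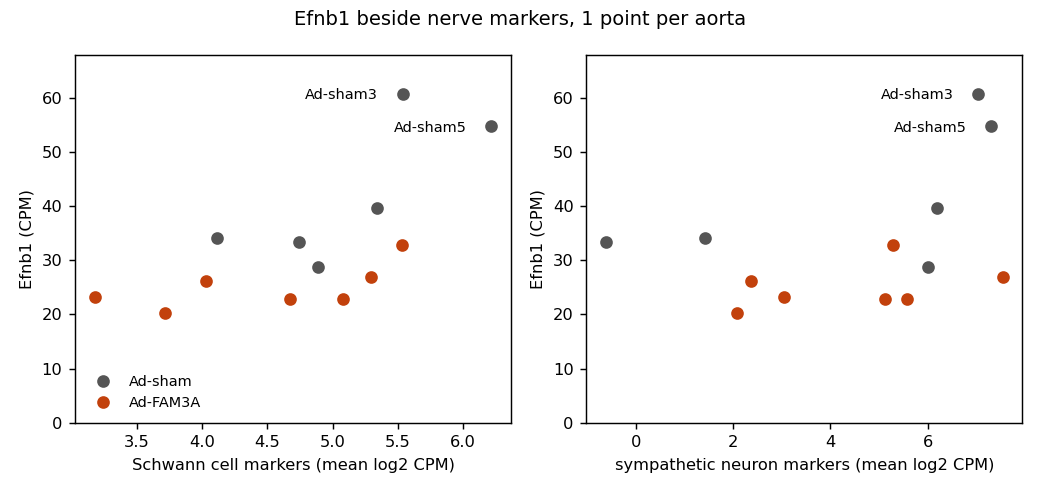
Efnb1 (CPM, vertical, from 0) against the mean log2 CPM of Schwann cell and of sympathetic neuron markers (horizontal), 1 point per aorta, grey for Ad-sham and orange for Ad-FAM3A. Ad-sham3 and Ad-sham5 are high on both axes, and the highest Ad-FAM3A point is at 32.8 CPM.

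Between the groups, 0 of the 16 marker lists differed (exact permutation test over all splits of 13 aortas into 6 and 7, two-sided, adjusted p = 0.914 to 0.938). Endothelial markers averaged 6.62 ± 0.30 in Ad-sham and 6.44 ± 0.23 in Ad-FAM3A (log2 CPM, exact permutation p = 0.248). Within that list 7 of 10 genes had a negative and 3 a positive log2 fold change, and 2 of 10 had an unadjusted p under 0.05 (beside 5.91% of all genes), both lower, namely the VEGF receptor Kdr (log2 fold change −0.64, SE 0.20) and the tight junction gene Cldn5 (−0.67, SE 0.22). In 3 other lists at least 2 genes were at that level, with 6 of 6 B cell genes higher (1 of 6 without Ad-FAM3A6), 3 of 7 adipocyte genes lower (1 of 7 without it) and 2 of 6 brown adipocyte genes lower (1 of 6 without it), the brown adipocyte score of all 7 Ad-FAM3A aortas lying below the Ad-sham median. Schwann cell markers were at 3.18 to 5.53 in Ad-FAM3A and 4.11 to 6.22 in Ad-sham, and 0 of the list's 6 genes were at an unadjusted p under 0.05. All tested genes had a log2 fold change of 1 sign in several lists, negative in those of Schwann cells (6 of 6), fibroblasts (8 of 8), sympathetic neurons (7 of 7), adipocytes (7 of 7), brown adipocytes (6 of 6) and cardiac muscle (4 of 4), and positive in those of smooth muscle (9 of 9), T cells (7 of 7), B cells (6 of 6) and cell division (6 of 6). Of the 7 Ad-FAM3A aortas, those with a score below the Ad-sham median numbered 5, 5, 6, 6, 7 and 1 in the negative lists, in this order. In the positive lists they numbered 3, 2, 4 and 3. Thus in cardiac muscle and B cells most Ad-FAM3A aortas lay on the side opposite to the sign. The part of these cell types in the level of Efnb1 was not tested.

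The genes with the most similar pattern were ranked by Pearson correlation over the 13 aortas after group means were subtracted. For Efnb1 they were Slc22a17 (r = 0.95), H1fx (0.92), Fam171a2 (0.89), Lrfn1 (0.88) and Usp43 (0.88). For Efnb2 they were 9230112J17Rik, Ntn1, Emp2, Boc and Prrt4, each at r = 0.96, and at 0.92 to 0.94 without Ad-FAM3A6, a setting added after the data were seen. Of these, Ntn1 encodes the guidance cue netrin-1, Boc a hedgehog coreceptor, and H1fx a linker histone. For the 5 genes beside Efnb1 r was 0.88 to 0.95 without Ad-FAM3A6. The points of these correlations share their libraries and were picked as the highest among 15811 genes.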

How the data were processed

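Aortic RNA of 13 AngII-infused ApoE knockout mice was analysed, grouped by the labels as 6 Ad-sham and 7 Ad-FAM3A. Reads were aligned to GRCm38 with Hisat2 and counted with FeatureCounts by the authors, who deposited the raw counts per Ensembl gene. The annotation release and strand setting are not given in the sources used here. A second table deposited by the authors holds FPKM, a single mean for each group, printed without SD, and 0 columns were left unmapped. No source says whether mice shared a litter or batch, and no 2 libraries were identical.

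Total counts were 14481179 to 19797407 per aorta, and intervals from them cover counting error only. Counts were normalized by TMM, filtered by filterByExpr and tested in edgeR 4.0.16 (R 4.3.3) by the quasi-likelihood test, with p-values adjusted over 15811 genes after Benjamini and Hochberg. CPM and RPKM were computed from TMM-scaled counts and the deposited gene lengths, with a prior count of 2 for log2 CPM. DESeq2 1.42.0, limma 3.58.1, other scalings, no filter on low counts, a replicate block, Spearman correlation and leaving out each aorta were the alternatives. Correlations used 100000 resamples within groups, and exact tests used all splits into 6 and 7 aortas or 8192 sign flips. The test scripts were tested on simulated data.

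The named genes were all 10 members, at most 3 genes per list at an unadjusted p under 0.05, marker and sex-linked genes on which a result turns, and the 5 genes most correlated with Efnb1 and with Efnb2. The members and lists were chosen with earlier results of these data known. The sex-linked genes gave Xist, which females express, of at most 0.364 CPM and the Y-linked Ddx3y of at least 79.6 CPM in all 13 aortas. By these genes all 13 mice were male.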

Additional observations from a re-analysis of the deposited data

Results flagged for a closer look

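Among 68 groups of values examined for 1 aorta far from the rest of its group, 6 were singled out, where chance alone gives about 1 in 20, or 3.4. Efnb2 in Ad-FAM3A6 was at 4.96 log2 CPM, with the other Ad-FAM3A aortas at 5.91 to 6.60. Ephb6 in Ad-FAM3A3 was at 4.12 log2 CPM, with the others at 2.97 to 3.24. Of the family genes outside the 10, Epha1 in Ad-FAM3A6 was at 0.67 log2 CPM (others 2.62 to 3.70) and Epha7 in Ad-FAM3A2 at 0.0646 log2 CPM (others 1.40 to 2.27). The T cell marker list in Ad-sham4 was at 3.84 mean log2 CPM (other Ad-sham aortas 0.63 to 1.74), and the cardiac muscle marker list in Ad-FAM3A6 was at 5.05 (other Ad-FAM3A aortas 0.73 to 1.98). In the Ad-sham group the cardiac muscle list was higher still in Ad-sham1 (5.71) and was at 3.72 in Ad-sham3. Ad-FAM3A6 accounts for 3 of the 6 values, and the Efnb2 log2 fold change without it was 0.24.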

How the results depend on the processing

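The count of genes called between the groups was 0 with edgeR and 10 with the DESeq2 test, and 0 when any 1 aorta was left out. Member pairs that passed numbered 3, and 0 with Spearman correlation, while leaving out 1 aorta gave 0 to 5, with 0 without Ad-FAM3A1, Ad-FAM3A4 or Ad-FAM3A6 and 5 without Ad-sham3, Ad-sham4 or Ad-sham6. Pairs of a member and a marker list that passed numbered 3, and 0 with Spearman correlation, while leaving out 1 aorta gave 0 to 4, with 0 without Ad-FAM3A6 and 1 without Ad-sham3 or Ad-FAM3A2. The cause was not tested. The log2 fold change of Efnb1 stayed between −0.84 and −0.61. Neighbors in the order of levels that differed numbered 3 to 5 when 1 aorta was left out. In all, 277 of the recomputed values were rated the same and 12 were rated as moved. The rating of same covered log2 fold changes that stayed within 1 SE of the main value, also where the sign changed. It also covered small changes of a count, such as pairs that passed going from 3 to 2 or 4, or neighbors from 4 to 3 or 5. With the replicate number as a replicate block the log2 fold change of Efnb1 was −0.69 and 0 genes were called. Same-numbered aortas had correlated deviations of −0.33 to 0.45 and 1 of 6 correlated best with its own number, so the numbers were not taken to pair them. The lowest count of any of the 10 genes in any aorta was 42 (Ephb3).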

Other observations

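Epha5, a receptor known from neurons and outside the 10 genes, was singled out after its values were seen. Its level was 21.1 CPM in Ad-sham3, 21.0 CPM in Ad-sham5 and 29.0 CPM in Ad-FAM3A3, the 3 aortas highest in sympathetic neuron markers. It was at 0.06 CPM in Ad-sham2 and 0 CPM in Ad-sham4, and at 0.25, 0.25 and 0.44 CPM in Ad-FAM3A2, Ad-FAM3A4 and Ad-FAM3A5, the 5 aortas lowest in those markers (−0.62 to 3.05 mean log2 CPM). Its log2 fold change between the groups was −0.53 (SE 1.19).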
